A study of Mus musculus with 14 samples.

Results

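The B-cell and follicular genes described here are 28 genes of follicular, germinal centre and plasma cells, without the immunoglobulin and class II genes. They were chosen by name from a processed table of 54955 gene symbols, and all 28 were found in it, each as 1 row. The 14 RNA-seq libraries came from adipose tissue of C57BL/6 mice, all in postnatal week 21. There were 7 KO libraries of genotype ko-dectin1, numbered 1 to 7, and 7 WT libraries of wild-type genotype, numbered 3 to 9. Strain, tissue and age were shared by both groups, and no treatment is named. The sources used here do not give the adipose depot, the sex of the mice, the kind of deletion or whether a library is 1 animal or a pool. P-values therefore measure the spread between these libraries.

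B cells carry an antigen receptor made of a membrane immunoglobulin and the signalling pair CD79A and CD79B. Naive cells recirculate through follicles of secondary lymphoid tissue, where the BAFF receptor and the transcription factor PAX5 maintain them. They also carry complement receptors and CD40, the receptor for T-cell help. Cells that differentiate into plasma cells switch to a programme of Prdm1, Irf4 and Xbp1. Adipose tissue holds B cells among its stromal cells and in fat-associated lymphoid clusters, and some depots enclose lymph nodes. Dectin-1, encoded by Clec7a, is a pattern recognition receptor for fungal beta-glucan found mainly on myeloid cells.

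Levels are in TPM, a length-corrected share of each library's transcripts, and the number of reads behind a value is unknown. Clec7a itself had 4.02, 6.33 and 10.5 TPM in KO libraries (lowest, median and highest), against 4.1, 12.5 and 18.9 TPM in WT libraries. The groups overlapped through WT replicates 4, 6 and 7, at 4.1, 4.72 and 5.96 TPM. The other WT libraries had 12.5 to 18.9 TPM, above every KO library. The log2 fold change of Clec7a was -0.48 ± 0.33 (SE, n = 7 each), with an adjusted p of 0.59 in limma. A gene-level value holds any transcript left beside a deleted part, so it does not check the genotype labels. Adipocyte markers were present throughout: Adipoq had 683 to 3000.4 TPM in KO libraries and 2001 to 4068 TPM in WT libraries.

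KO replicate 7, WT replicate 4 and WT replicate 7 stood apart, and they were set apart by the levels of these genes themselves. In these 3 libraries, 24 of the 28 genes lay below every one of the other 11 libraries. The share of all genes that did so was not computed. Cd79a was at 1.52 TPM in KO replicate 7, 0.62 TPM in WT replicate 4 and 1.31 TPM in WT replicate 7, and between 177 and 719.9 TPM elsewhere. The exceptions were Xbp1, Sdc1, Prdm1 and Tnfrsf17. All 4 are linked to plasma cells, but Xbp1 and Sdc1 are also made by other cells. Prdm1 reached at most 1.75 TPM and Tnfrsf17 at most 2.09 TPM in any library, so neither could fall far. Mzb1 and Irf4, also linked to plasma cells, were among the 24. Of 15 secretory genes of plasma cells outside the 28, 3 lay below all other libraries. The joining chain gene Jchain was 1 of these. It had 1.74 to 10.7 TPM in the 3 libraries and 13.5 to 294 TPM in the other 11. T-cell genes were low in the same libraries: 16 of 16 lay below all other libraries, and their summed level was 48.8, 14.9 and 36.4 TPM in KO replicate 7, WT replicate 4 and WT replicate 7, against 484 to 1740.3 TPM in the other 11. The same pattern was found in 7 of 10 dendritic cell, 4 of 8 plasmacytoid dendritic cell and 4 of 10 follicular dendritic cell genes, and in none of 12 macrophage, 10 adipocyte or 9 epithelial and mesothelial genes. The summed adipocyte level was 36112, 27816 and 29616 TPM in KO replicate 7, WT replicate 4 and WT replicate 7, above the 7226 to 22682 TPM of the rest. In bulk tissue, fewer cells of a type and less RNA per cell cannot be told apart. Because 1 of the 3 libraries is KO and 2 are WT, the counts and medians of the comparisons of KO with WT below are given with and without them.

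**Figure D1:**
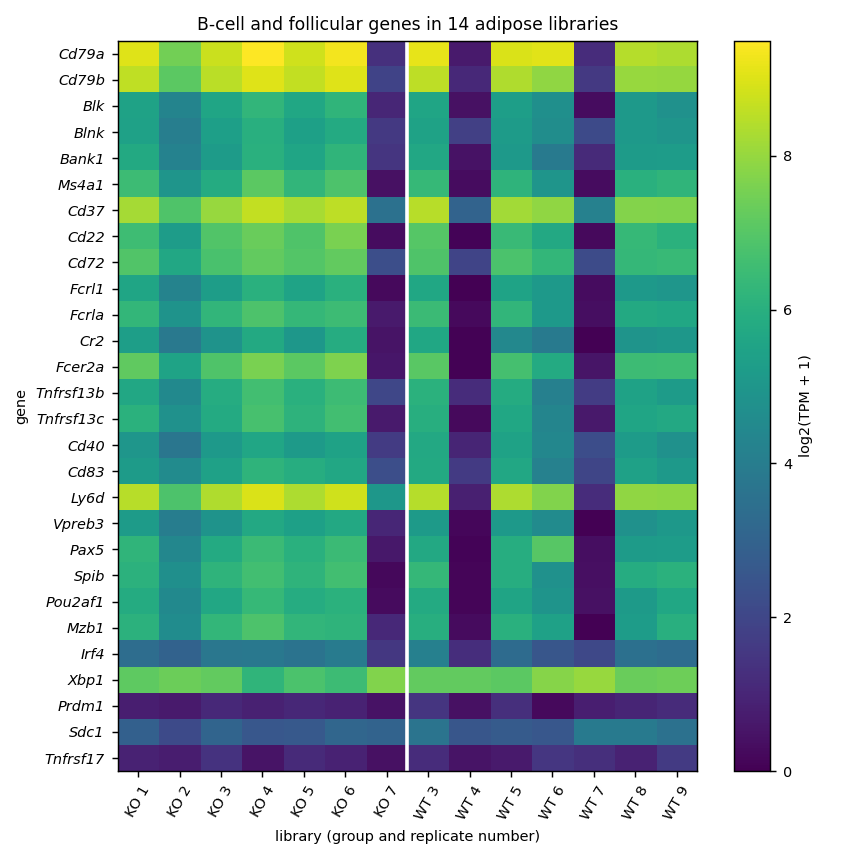
Colour gives log2(TPM + 1) of each of the 28 genes (rows, ordered by role) in each of the 14 libraries (columns), with the 7 KO libraries left of the white line and the 7 WT libraries right of it. In KO replicate 7, WT replicate 4 and WT replicate 7, 24 genes are darker than in each of the other 11 libraries, while Xbp1 is bright in all 14.

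The receptor signalling pair was the most abundant. Cd79a, which encodes the signalling chain Ig-alpha, had 1.52, 446 and 719.9 TPM in KO libraries (lowest, median and highest), against 0.62, 349 and 563 TPM in WT libraries. In each of the 11 libraries that did not stand apart it was the highest of the 28. Cd79b, which encodes the signalling chain Ig-beta, had 2.77, 382 and 521 TPM in KO libraries and 1.13, 254 and 372 TPM in WT libraries. The groups overlapped for both chains. Without the libraries that stood apart they still did, with Cd79a at 177 to 719.9 TPM in KO and 323 to 563 TPM in WT libraries. Blk, a Src-family kinase of B cells, had 1.04, 46.8 and 75.9 TPM in KO libraries and 0.24, 26.9 and 47.3 TPM in WT libraries. Blnk, the adaptor that links SYK to downstream enzymes, had 1.97, 40.6 and 62.2 TPM in KO libraries and 2.45, 29.7 and 43.0 TPM in WT libraries. Bank1, a scaffold of receptor signalling, had 1.78, 46.8 and 74.1 TPM in KO libraries and 0.37, 34.6 and 50.8 TPM in WT libraries. The highest library was KO for all 5 of these genes, and the ranges still overlapped.

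Among the surface molecules of mature B cells, Ms4a1, which encodes CD20, had 0.33, 74.7 and 136.9 TPM in KO libraries, against 0.23, 63.7 and 81.8 TPM in WT libraries. Cd37, a tetraspanin of B cells and other leukocytes, had 10.8, 297 and 393 TPM in KO libraries and 7.17, 214 and 354 TPM in WT libraries. In the libraries that stood apart Cd37 kept 7.17 to 16.9 TPM, the highest in WT replicate 7. Cd22, an inhibitory sialic-acid-binding receptor, had 0.26, 115.9 and 190.2 TPM in KO libraries and 0.07, 66.0 and 128 TPM in WT libraries. Cd72, another inhibitory receptor, had 3.8, 119.9 and 147 TPM in KO libraries and 2.83, 78.5 and 115.5 TPM in WT libraries. The Fc receptor-like genes were at intermediate levels. Fcrl1 had 0.17, 44.2 and 64.9 TPM in KO libraries and 0, 34.0 and 49.4 TPM in WT libraries, and Fcrla had 0.62, 76.8 and 115.2 TPM in KO libraries and 0.17, 49.0 and 86.9 TPM in WT libraries. In each case the KO median was the higher and the groups overlapped. In the GENCODE annotation, exons of Cd22 overlap those of Gm29439 (0 to 0.88 TPM over all libraries), exons of Cd72 those of Tesk1 (9.44 to 22.7 TPM) and exons of Cd37 those of Tead2 (2.22 to 8.62 TPM), so reads of these pairs are uncertain where strand was not used. The sources used here do not say whether it was.

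The complement receptor Cr2 (CD21), which also marks follicular dendritic cells, had 0.41, 31.7 and 57.1 TPM in KO libraries, against 0.01, 20.7 and 48.9 TPM in WT libraries. Fcer2a, the low-affinity IgE receptor CD23 of follicular B cells, had 0.48, 137 and 200.1 TPM in KO libraries and 0.03, 90.3 and 132 TPM in WT libraries. Both were near 0 in the libraries that stood apart. The TNF-receptor family member Tnfrsf13c, the BAFF receptor, had 0.62, 65.9 and 106 TPM in KO libraries and 0.18, 46.4 and 61.1 TPM in WT libraries. Tnfrsf13b, which encodes TACI, had 3.02, 57.7 and 97.5 TPM in KO libraries and 1.32, 36.2 and 66.5 TPM in WT libraries. Tnfrsf17, which encodes the plasma cell receptor BCMA, stayed between 0.35 and 1.61 TPM (median 0.86) in KO libraries and between 0.43 and 2.09 TPM (median 1.32) in WT libraries. It reached 1 TPM in too few libraries to be tested. Cd40, the receptor for T-cell help, had 2.11, 33.3 and 48.0 TPM in KO libraries and 1, 27.0 and 51.6 TPM in WT libraries. Cd83, an activation marker shared with dendritic cells, had 3.83, 41.8 and 72.1 TPM in KO libraries and 2.07, 33.9 and 53.1 TPM in WT libraries. Cd40 was the only one of these receptors whose highest library, apart from the untested Tnfrsf17, was WT.

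Ly6d, a surface protein of the B lineage that epithelia also express, had 31.3, 331 and 499 TPM in KO libraries, against 0.79, 237 and 342 TPM in WT libraries. Its 31.3 TPM in KO replicate 7 stood out beside 0.79 and 1.32 TPM in WT replicates 4 and 7. In the same library Krt18 had 30.6 TPM, Krt19 25.9 TPM, Krt8 20.3 TPM and Epcam 16.1 TPM, genes singled out after their values were seen. Krt8 was higher, at 26.0 TPM, in WT replicate 8. Of 9 epithelial and mesothelial genes, 6 were highest in KO replicate 7, among them Krt5 and Krt14 at only 0.21 and 0.35 TPM. Their summed level was 98.7 TPM there and 3.24 to 13.6 TPM in the other KO libraries, against 2.47 to 49.9 TPM in WT libraries. Its part in the Ly6d value was not tested. Vpreb3, expressed during B-cell development and in mature B cells, had 1.02, 36.1 and 51.6 TPM in KO libraries and 0, 27.2 and 34.7 TPM in WT libraries.

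Pax5, Spib and Pou2af1 are regulators of B-cell identity. Pax5, which commits cells to the lineage, had 0.52, 63.6 and 87.7 TPM in KO libraries, against 0.08, 37.0 and 131 TPM in WT libraries. The 131 TPM came from WT replicate 6 and was the highest of all 14. Spib, an ETS factor related to PU.1, had 0.14, 70.9 and 97.8 TPM in KO libraries and 0.09, 57.2 and 79.7 TPM in WT libraries. Pou2af1, the coactivator that binds octamer factors, had 0.2, 55.9 and 81.2 TPM in KO libraries and 0.09, 35.4 and 54.6 TPM in WT libraries. These 3 genes were near 0 in the libraries that stood apart.

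Motifs of such factors were looked for in the members' promoters, because these genes moved together across libraries. RefSeq promoters on GRCm38.p6, from 250 bases before to 50 after the start, were found for 21 of the 28 genes (23 promoters). The 5 motifs were chosen with the expression values known, and both strands were searched. The octamer ATGCAAAT was in the promoters of Blnk and Vpreb3 and in 1.74% of 32851 promoters of that length. The EBF1 palindrome was in that of Cd22 and in 0.904% of all. The PU.1 motif GAGGAAGT was in those of Cd37, Cd72 and Fcrl1 and in 3.2% of all. The unfolded-protein-response element core TGACGTGG was in that of Pou2af1 and in 0.676% of all, and the cyclic AMP response element TGACGTCA was in none of the 23 and in 1.79% of all. Vpreb3 (chr10:75948050-75948349, plus strand), Cd22 (chr7:30878979-30879278, minus strand) and Fcrl1 (chr3:87376137-87376436, plus strand) are shown as 1 example of each of the first 3 motifs, read along the gene's strand with the match in capitals, and Cd79a (chr7:24897247-24897546, plus strand) as the most abundant gene, in which none of the 5 matched.
Vpreb3: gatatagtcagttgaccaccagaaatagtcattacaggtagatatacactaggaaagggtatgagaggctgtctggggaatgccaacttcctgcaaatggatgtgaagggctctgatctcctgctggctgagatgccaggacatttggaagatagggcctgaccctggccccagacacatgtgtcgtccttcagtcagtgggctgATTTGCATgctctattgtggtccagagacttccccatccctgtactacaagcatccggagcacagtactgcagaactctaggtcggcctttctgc
Cd22: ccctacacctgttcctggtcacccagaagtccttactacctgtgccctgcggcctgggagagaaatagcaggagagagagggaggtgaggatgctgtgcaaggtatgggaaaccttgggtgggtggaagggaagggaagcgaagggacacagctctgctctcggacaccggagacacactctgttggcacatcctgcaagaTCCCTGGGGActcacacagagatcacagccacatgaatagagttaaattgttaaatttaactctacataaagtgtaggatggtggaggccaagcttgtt
Fcrl1: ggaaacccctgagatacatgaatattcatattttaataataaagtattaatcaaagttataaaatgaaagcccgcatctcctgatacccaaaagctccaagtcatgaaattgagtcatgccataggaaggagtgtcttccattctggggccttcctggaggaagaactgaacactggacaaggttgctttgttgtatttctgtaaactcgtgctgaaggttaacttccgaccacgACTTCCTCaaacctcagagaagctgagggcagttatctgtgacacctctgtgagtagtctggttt
Cd79a: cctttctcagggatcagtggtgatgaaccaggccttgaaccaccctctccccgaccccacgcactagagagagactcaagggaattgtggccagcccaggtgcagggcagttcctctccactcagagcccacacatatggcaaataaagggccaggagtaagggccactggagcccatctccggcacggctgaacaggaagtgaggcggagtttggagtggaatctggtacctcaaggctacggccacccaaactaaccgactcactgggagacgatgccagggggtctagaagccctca
The octamer of Vpreb3 lies at bases 206 to 213 of its window and reads as its reverse complement, the EBF1 match of Cd22 at bases 202 to 211, and the PU.1 match of Fcrl1 at bases 236 to 243, also reversed. A match describes letters in this window and no binding was measured.

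The plasma cell genes did not all follow Cd79a. Mzb1, a chaperone of marginal zone B cells and plasma cells, had 1.15, 70.9 and 114 TPM in KO libraries, against 0, 42.7 and 63.5 TPM in WT libraries, and was low where Cd79a was low. Its exons overlap those of SPATA24 on the same strand in the GENCODE annotation, so strand could not tell reads of the 2 genes apart and its level is uncertain. Irf4, a factor of activated B cells and plasma cells that T cells also express, had 1.87, 11.2 and 14.3 TPM in KO libraries and 1.38, 8.91 and 16.5 TPM in WT libraries. Xbp1, the secretory-pathway factor present in many cell types, had 73.5, 139 and 205 TPM in KO libraries and 136, 161 and 259.9 TPM in WT libraries. Its highest value in each group was in a library that stood apart, KO replicate 7 and WT replicate 7. Sdc1, which encodes the plasma cell marker CD138 and is also made by epithelia, had 3.43, 6.5 and 7.82 TPM in KO libraries and 4.88, 10.7 and 14.1 TPM in WT libraries. Prdm1, which encodes BLIMP-1, had 0.37, 0.83 and 1.16 TPM in KO libraries and 0.19, 0.96 and 1.75 TPM in WT libraries, and was not tested. Jchain, a joining chain of secreted immunoglobulin that is outside the 28, had 10.7, 55.6 and 147 TPM in KO libraries and 1.74, 31.2 and 294 TPM in WT libraries, with the highest value in WT replicate 9; it was singled out after its values were seen.

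**Figure D2:**
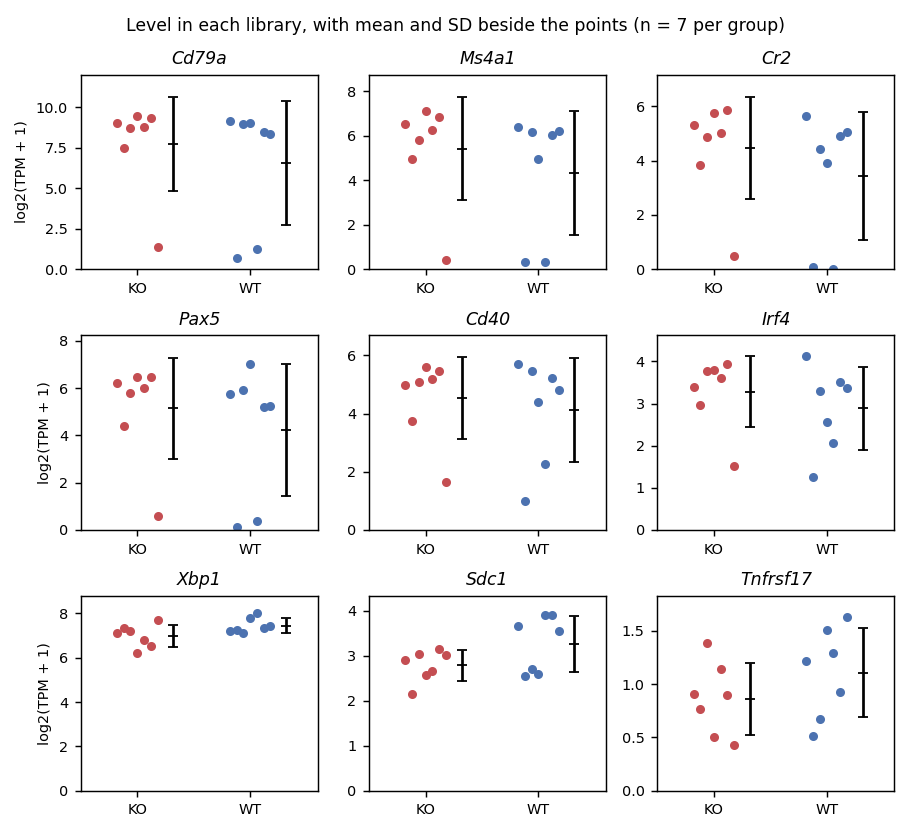
Each panel gives log2(TPM + 1) of 1 gene in the 7 KO (left) and 7 WT (right) libraries, 1 point per library, with the mean and SD as bars beside the points. For Cd79a, Ms4a1, Cr2, Pax5 and Cd40 the points fall into a high set and 1 low KO and 2 low WT libraries, whereas Xbp1 and Sdc1 show no such gap.

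The comparison of KO with WT adipose tissue asked whether loss of Dectin-1 went with another level of these genes. Of the 28 genes, 26 reached 1 TPM in at least 7 of 14 libraries and were tested on log2(TPM + 1) with limma. None of the 26 was called at an adjusted p under 0.05, where 3 of all 14719 genes (0.0204%) were called, all lower in KO. None of the 26 had an unadjusted p under 0.05 either, a level at which 4.67% of all genes were higher and 6.74% lower in KO. The KO and WT values overlapped for all 28 genes, and 0.319% of all tested genes did not overlap. Fold changes were above 0 for 24 genes and below 0 for 2, with a median log2 fold change of 1.02 over the 26, beside 0.04 over all genes.

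The intervals were wide. Cd79a had a log2 fold change of 1.19 ± 1.68 (SE), with a 95% interval of -2.42 to 4.81 and an adjusted p of 0.77. Ly6d had the largest fold change of the 26, 1.78 ± 1.30, with an adjusted p of 0.61. The genes below 0 were Xbp1, at -0.45 ± 0.22 with an adjusted p of 0.45, and Sdc1, at -0.48 ± 0.26 with an adjusted p of 0.49 (limma, n = 7 each). Neither was shown to differ, and these were the smallest and next smallest adjusted p of the 26.

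Without the libraries that stood apart, 6 KO and 5 WT libraries remained and the median log2 fold change of the 26 genes was 0.27, beside -0.01 over all genes. Again none was called, as was none of 14719 genes (0%). The fold change shrank by more than 1.5 times or changed sign for 24 of the 26 genes. That of Cd79a was 0.02 ± 0.31, with a 95% interval of -0.65 to 0.70 and an adjusted p of 0.99. Cd40 was the 1 gene whose sign changed, to -0.11 ± 0.32 without the 3 libraries, against 0.41 ± 0.80 with them. Xbp1 had a fold change of -0.50 ± 0.21, with an unadjusted p of 0.035 and an adjusted p of 0.46 in limma, and was the only one of the 26 with an unadjusted p under 0.05, a level at which 3.21% of all genes were higher and 7% lower in KO. All 28 genes overlapped between KO and WT here too, where 1.24% of the tested genes did not.

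**Figure D3:**
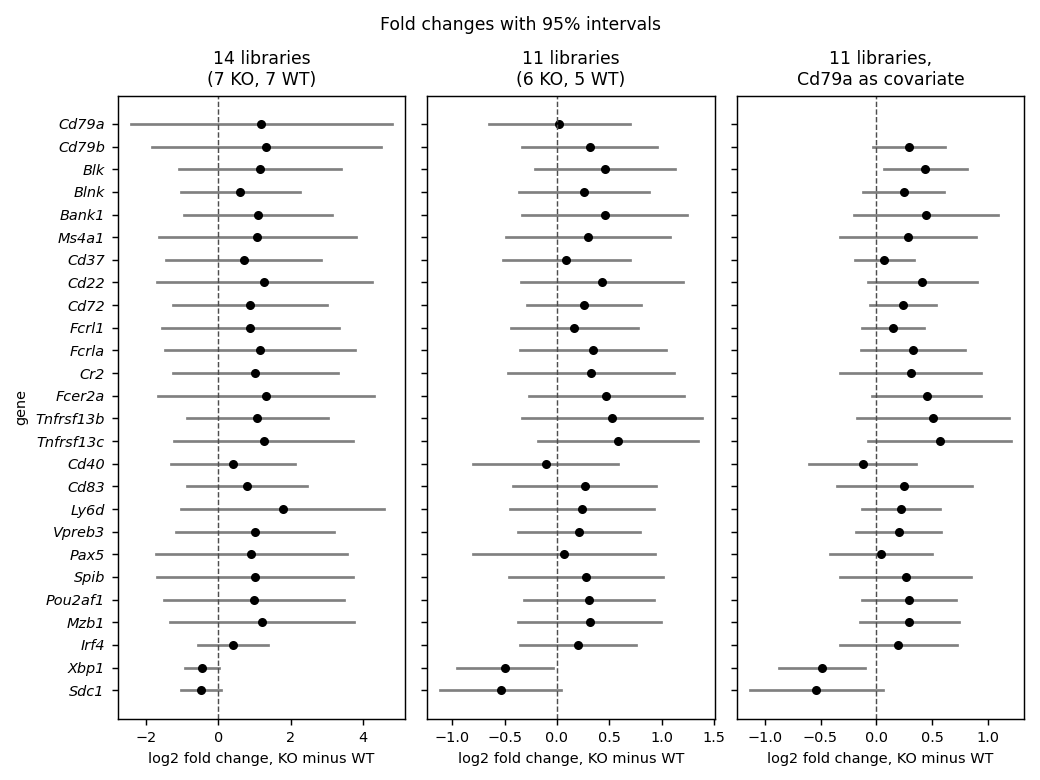
Points are log2 fold changes, KO minus WT, of 26 genes with 95% intervals, from all 14 libraries (left), from the 11 libraries left without KO replicate 7, WT replicate 4 and WT replicate 7 (middle), and from the 11 with Cd79a as a covariate (right, 25 genes); the horizontal scales differ. Most points lie above 0 in each panel, every interval of the left panel reaches 0, and Xbp1 and Sdc1 lie below 0 throughout.

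Genes of the same pathways outside the 28 were not called either. Of 84 tested genes in 6 lists, none was called in either direction in 14 libraries, and 61 had a fold change above 0 and 23 below, with a median of 0.35. Without the 3 libraries that stood apart none was called, 52 lay above 0 and 32 below, and the median was 0.11. In 14 libraries 1 of the 84 (1.19%) had an unadjusted p under 0.05, beside 11.4% of all genes. This was Edem2, of the degradation of misfolded glycoproteins, at -0.26 ± 0.11 (limma adjusted p 0.42); it had 22.2, 25.7 and 30.2 TPM in KO libraries and 24.4, 30.8 and 39.3 TPM in WT libraries. In 11 libraries 4 of the 84 (4.76%) did, 1 higher and 3 lower, beside 10.2% of all genes. They were Siglecg, an inhibitory lectin, at 0.67, and Tnfsf13, which encodes the plasma cell survival ligand APRIL, at -0.80, with Plac8 at -0.53 and Edem2 at -0.32; their adjusted p in limma ran from 0.37 to 0.49.

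Most of the lists lay closer to 0 without the 3 libraries. The 20 receptor signalling genes had a median log2 fold change of 0.72 in 14 libraries, with 19 above 0, and of 0.27 in 11, with 18 above 0. Siglecg was at 1.23 ± 0.90 in 14 libraries, and Cd81, a tetraspanin, had the smallest p of the list at -0.33 ± 0.19. The 14 transcription factors had a median of 0.49 in 14 libraries, with 11 above 0, and of 0.29 in 11, with 12 above 0; Bach2, a repressor of plasma cell fate, was at 0.87 ± 0.64 and then 0.53. The 11 germinal centre genes had a median of 0.08 in 14 libraries, with 8 above 0, and of 0.03 in 11, with 6 above 0; the proliferation marker Mki67 was at 0.61 ± 0.41 and then 0.48. The 16 homing and survival genes had a median of 0.60 in 14 libraries, with 13 above 0, and of 0.13 in 11, with 10 above 0; S1pr1, the receptor for exit from lymphoid tissue, was at 0.57 ± 0.36 and then 0.41. The 9 marginal zone and B1 genes had a median of -0.12 in 14 libraries and -0.09 in 11, with Cd1d1 at -0.49 ± 0.28 and then -0.42. The 15 secretory genes were the exception, with a median of -0.06 in 14 libraries and -0.19 in 11. Only 2 of the 9 marginal zone and B1 genes lay below all other libraries in the 3 that stood apart. Cd1d1 was highest in those 3, at 157 to 187 TPM against 47.1 to 143 TPM in the rest. Cd36 is counted both among these 9 and among the adipocyte genes. None of these genes passed the test, with limma adjusted p from 0.421 to 0.996 over the 84 genes in 14 libraries.

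Lists of other cell types were read beside these. The 16 T-cell genes had a median log2 fold change of 1.03 in 14 libraries and 0.21 in 11; Lat, an adaptor of the T-cell receptor, was at 1.18 ± 1.02 and then 0.43. The 10 dendritic cell genes had a median of 0.22 in 14 libraries, with all 10 above 0, and of 0.0012 in 11, with 5 above 0. The 8 plasmacytoid dendritic cell genes had a median of 0.12 in 14 libraries and 0.10 in 11. The lists below 0 stayed there. The 10 tested follicular dendritic cell genes had a median of -0.14 in 14 libraries and -0.36 in 11, with Prnp at -0.92 ± 0.25 and an adjusted p of 0.22 in 14. In the libraries that stood apart, only 4 of these 10 lay below all others. Prnp did not, at 242 to 434 TPM there against 73.3 to 277 TPM in the rest. The 12 macrophage genes had a median of -0.50 in 14 libraries and -0.71 in 11, with Cd14 at -0.96 ± 0.21 and an adjusted p of 0.16 in 14. The 10 adipocyte genes had a median of -0.48 in 14 libraries and -0.47 in 11, with Cidec, a lipid droplet protein, at -0.97 ± 0.31 and an adjusted p of 0.28 in 14. None of these genes was called in either set of libraries (limma). The part of these cell types in the B-cell values was not tested.

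Levels relative to Cd79a were then compared within the 11 libraries, for the 25 other genes at 1 TPM or more in all of them, to ask whether any differed at an equal level of the receptor chain. With the log2 level of Cd79a as a covariate, none of the 25 was called, as was none of 14718 genes (0%). Fold changes were above 0 for 22 genes, with a median of 0.26. Blk had 0.44 ± 0.17, with an unadjusted p of 0.025 and an adjusted p of 0.32, and Xbp1 had -0.49 ± 0.18, with an unadjusted p of 0.017 and an adjusted p of 0.28. These were the 2 genes with an unadjusted p under 0.05, where 4.21% of all genes were higher and 8.47% lower in KO. Without WT replicate 6 the median was 0.08, 17 genes were above 0 and none was called, whereas 0.747% of all genes were.

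WT replicate 6, singled out after its values were seen, had an unusual mix. Relative to Cd79a, 22 of the 25 genes were lower in it than in each of the other 10 libraries. These ratios share 1 denominator, Cd79a at 529 TPM in WT replicate 6, and the share over all genes was not computed. Pax5 was higher, at 24.7 TPM per 100 TPM of Cd79a against 9.34 to 14.2 in the others, and Xbp1 and Sdc1 were within the range of the others. Cd79b stood at 45.6 per 100 of Cd79a, against 65.4 to 88.3 in the others. Relative to Cd79b, 14 genes were lower than in all others, 4 higher and 7 within. Of the listed genes at 1 TPM or more in all 11 libraries, 16 of 16 T-cell, 19 of 20 receptor signalling, 15 of 16 homing and survival, 12 of 14 transcription factor and 8 of 9 dendritic cell genes were also lower in it than in the others relative to Cd79a. The share was smaller for 7 of 15 secretory, 5 of 9 germinal centre, 5 of 9 marginal zone and B1, 4 of 12 macrophage, 3 of 8 follicular dendritic cell and 3 of 6 plasmacytoid dendritic cell genes, and no adipocyte gene of 10 was. These lists were not read relative to Cd79b. The exons of Pax5 overlap those of 5730488B01Rik and Gm12462 in the GENCODE annotation, which had 0.7 and 0 TPM in WT replicate 6, and whether reads were assigned by strand is not given.

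**Figure D4:**
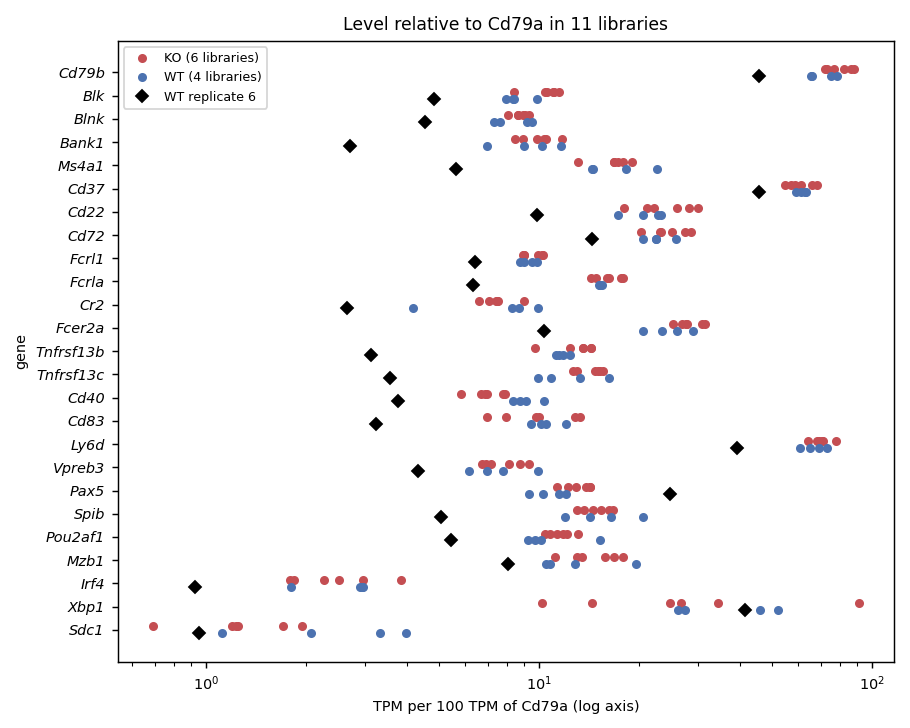
Each row gives 1 gene's TPM per 100 TPM of Cd79a (log axis) in 6 KO libraries, 4 WT libraries and WT replicate 6 (diamond). The diamond lies left of all other points for 22 of 25 genes and right of them for Pax5.

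Relative to Cd79a, Cd40 had 5.83 to 7.89 TPM per 100 TPM in KO libraries. It had 8.35 to 10.3 in 4 WT libraries and 3.78 in WT replicate 6. The groups overlapped through that 1 library. Without WT replicate 6, the fold change at equal Cd79a was -0.37 ± 0.11, with an adjusted p of 0.11 in limma, so Cd40 was not called. It was singled out after its values were seen. Sdc1 was at -0.73 ± 0.25 in that fit, with an adjusted p of 0.15 in limma. Cd40, Sdc1 and Xbp1 (lower) and Pax5 and Blk (higher) had an unadjusted p under 0.05 there. The share of all genes at that level, or separated as Cd40 was, was not computed.

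**Figure D5:**
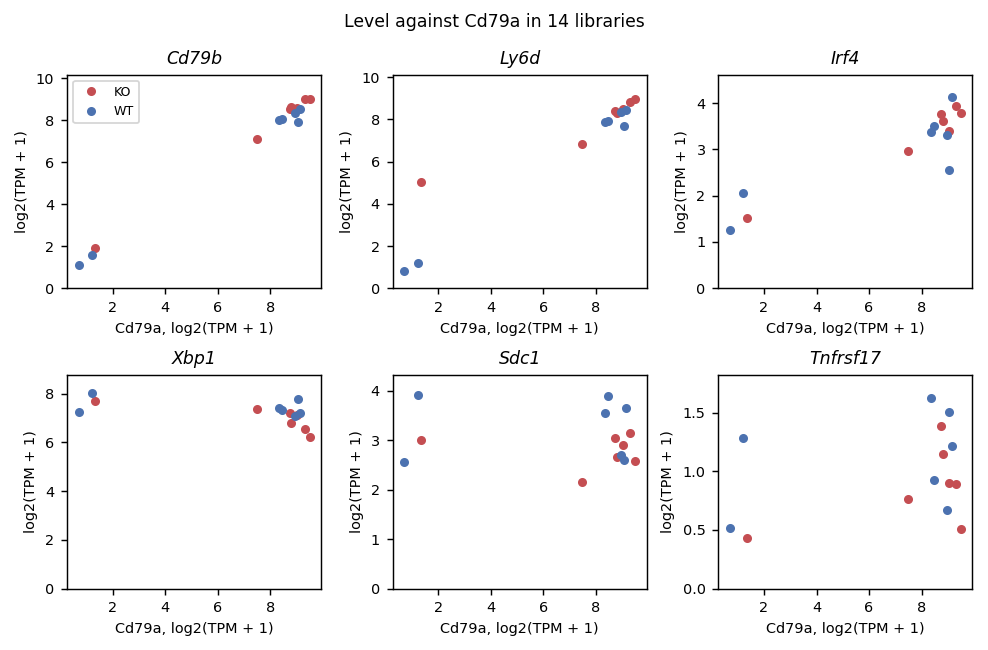
Each panel plots log2(TPM + 1) of 1 gene against that of Cd79a in 7 KO and 7 WT libraries, 1 point per library. Cd79b, Ly6d and Irf4 are low in the 3 libraries with little Cd79a, with KO replicate 7 higher than the others for Ly6d, while Xbp1 and Sdc1 lie there within or above the range of the other 11, and Tnfrsf17 is low in all 14.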

How the data were processed

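Per the labels' protocols, Trizol was used on flash-frozen adipose tissue, and 1 ug of total RNA went into each Illumina TruSeq library. The submitters' processing notes name Bowtie 0.12.2 and the builds mm8 and mm9; how TPM was computed, and whether strand was used, is not given in the sources used here. The authors deposited TPM per gene for 14 libraries, which keeps no read depth, so no counting interval is given. Each library had 13487 to 15562 genes at 1 TPM or more. Rows of 1 symbol were summed. The 14719 genes that reached 1 TPM in 7 of 14 libraries or more were tested on log2(TPM + 1) with limma 3.58.1 in R 4.3.3, with a mean trend and a robust prior, two-sided, and p adjusted by Benjamini-Hochberg over all of them. The pseudocount of 1 makes changes of low genes look smaller. Only the plain fit of 14 libraries was tested on simulated data. There each gene's deviations from its group means were shuffled separately, so shifts shared by many genes in a library were not covered. The members and lists were chosen with earlier results of these data known. All 28 members, up to 4 genes per list by smallest p, and Clec7a were named by rule. Alternatives covered pseudocounts, filters, scaling, variance models, left-out libraries and a replicate block.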

Additional observations from a re-analysis of the deposited data

Results flagged for a closer look

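A library was looked at again where its gap to the nearest library of its group was large for the group's range, by Dixon's 95% criterion. On the TPM scale this marked none of 56 groups (28 genes, KO and WT). On the log2(TPM + 1) scale it marked 20, each the low value of KO replicate 7; the 2 low WT libraries shield each other from this criterion. The scale was not chosen in advance, so both are given.

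Of 50 groups of levels per 100 TPM of Cd79a, 6 were marked on the linear scale, and 9 of 50 on the log2 scale. Chance marks about 1 in 20 groups. These groups share the Cd79a denominator of each library and are not independent, so their counts cannot be set against that rate. WT replicate 6 accounted for 4 of the 6. Its Pax5 value was 24.7, the highest of 5 WT libraries. Its values were the lowest of the 5 for Tnfrsf13b at 3.14, Fcrla at 6.35 and Cd37 at 45.6. The other marked values were KO, with Blk lowest at 8.43 in KO replicate 1 and Xbp1 highest at 91.3 in KO replicate 2. KO replicate 2 had the least Cd79a of the 6 KO libraries, 177 TPM, which is the denominator of that ratio.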

How the results depend on the processing

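The read depth is unknown, and the spread between libraries limits every comparison: the SE of Cd79a was 1.68 with the 3 low libraries and 0.31 without them. No member was called under any alternative in the fits without Cd79a. Leaving out 1 library at a time, or the 3 low ones, gave median log2 fold changes of 0.27 to 1.68, with 0.38 without WT replicate 4, 0.41 without WT replicate 7 and 1.68 without KO replicate 7. Cd40 was the only member to change sign, at -0.11 both without WT replicate 4 and without the 3 libraries, and at 0.89 without KO replicate 7. Library weights called 2 pathway genes, 0 higher and 2 lower, Pdia4 and Tnfsf13, where 248 of all genes were called higher and 575 lower; without weights the count was 0. KO and WT share the numbers 3 to 7, and 2 of 5 pairs correlated best with their own number. The correlation was 0.803 for number 7, low in both groups, and -0.672 for number 4, low in WT only. These values therefore cannot decide whether the numbers pair the 10 libraries. With the replicate block in those 10 libraries, 0 members were called. The median was 1.6 with and without the block. That equality was fixed in advance, because each number has 1 KO and 1 WT library. At equal Cd79a, the replicate block in the 6 libraries numbered 3, 5 and 6 called 17 of 25 members, 16 higher and 1 lower, with 1 residual degree of freedom and 19.1% of all genes called; without the block in these libraries it was 0. The cause was not tested.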
